A study of Mus musculus with 2 samples.

Results

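The 39 protein-coding genes of the 4 mouse Hox clusters were examined for DNase I accessibility in the left cerebral cortex, out of 21951 protein-coding genes in the GENCODE annotation of mm10. Members were chosen by symbol: Hoxa, Hoxb, Hoxc or Hoxd followed by digits. The set as a whole was picked with the promoter peaks and footprints of these libraries in view, so its promoter values are a description and carry no test. DNase-seq cuts nuclear DNA with DNase I and maps the cuts, and a stretch cut far above its surroundings is called a DNase I hypersensitive site (DHS). The study has 1 group of 2 libraries, replicates 1 and 2. Each library came from the left cerebral cortex of a different female B6CASTF1/J mouse, an F1 hybrid strain, at an age of 14 days. The labels name no treatment and no engineered allele, and there is 1 group only, so values are printed for the libraries separately or as a mean ± SD (n = 2).

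Hox genes encode homeodomain transcription factors that specify position along the head to tail axis. In vertebrate embryos their order along each cluster follows the order of their expression along the body. Within the nervous system they are used in the hindbrain and spinal cord, and the forebrain lies in front of their expression domains. Where they are silent, the clusters are a textbook target of Polycomb complexes, which keep chromatin compact. Many carry CpG-rich promoters, a promoter class that is open in most tissues, and several binding sites of the insulator protein CTCF divide the clusters into domains.

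The files give each library's peaks with a signal, on a scale whose factor is not stated, and footprints, which are short protected stretches inside cut chromatin. Replicate 1 had 90059 peaks and 199455 footprints, and replicate 2 had 175597 peaks and 416840 footprints. Counts of reads are not given, so depth is unknown and the signals of the libraries are not set to 1 scale. A peak of each library overlapped at 78165 places, called shared DHSs here. All 10 cerebral cortex markers examined had a promoter peak in both libraries. The share was 62.7% over all protein-coding genes and 93.1% over those with CpG-rich promoters (defined below). The marker counts are a description and carry no test. Of 9 markers of hindbrain and spinal cord outside the Hox family, 2 had one in both libraries, among them Egr2 (signal 2.91 ± 0.0817), 1 had one in replicate 2, and 6, among them En1 and En2, had none. In bulk tissue, a site open in few cells and a site cut weakly in many cells cannot be told apart.

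In 3 of the 4 clusters the DHS with the highest signal lay between genes or in an intron and not at a Hox promoter. The sequences of these sites are shown first because they have the highest signal of their clusters. The sequences are mm10 reference, read 5′ to 3′ on the strand named, with the best match to a CTCF consensus of 12 positions in capitals.
Hoxc DHS (chr15:102987501-102987700, minus strand): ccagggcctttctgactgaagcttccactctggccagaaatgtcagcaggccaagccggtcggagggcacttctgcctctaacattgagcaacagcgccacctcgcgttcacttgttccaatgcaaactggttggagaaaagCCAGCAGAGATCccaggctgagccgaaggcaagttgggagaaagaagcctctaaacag
Hoxd DHS (chr2:74702301-74702500, plus strand): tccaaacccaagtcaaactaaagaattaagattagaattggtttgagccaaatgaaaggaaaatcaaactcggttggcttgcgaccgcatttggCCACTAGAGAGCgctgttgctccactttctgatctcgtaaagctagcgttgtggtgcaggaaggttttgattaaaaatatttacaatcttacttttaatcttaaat
Hoxb DHS (chr11:96278861-96279060, plus strand): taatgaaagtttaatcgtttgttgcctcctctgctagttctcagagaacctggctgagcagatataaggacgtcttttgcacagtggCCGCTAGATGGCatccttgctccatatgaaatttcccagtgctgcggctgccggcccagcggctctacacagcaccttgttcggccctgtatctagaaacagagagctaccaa
The Hoxc DHS lies in an intron of the long Hoxc5 transcript, 2907 bp from the nearest Hox transcription start site (TSS), that of Hoxc8. The Hoxd DHS is intergenic, 2115 bp from a Hoxd8 TSS, and the Hoxb DHS is intergenic, 2845 bp from a Hoxb8 TSS.

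A promoter peak, meaning a peak within 1 kb of any annotated TSS, was present in both libraries at 5 of 39 Hox genes: Hoxa7, Hoxa10, Hoxb5, Hoxc5 and Hoxc10. Among all protein-coding genes 62.7% had one. By library the Hox counts were 5 in replicate 1 and 6 in replicate 2, beside 63.6% and 67.7% of all genes. At least 1 library had a promoter peak at 6 Hox genes, beside 68.6% of all genes, and 33 had none in either. Hoxd was the cluster with no accessible promoter, at 0 of 9 genes, while Hoxa had 2 of 11, Hoxb 1 of 10 and Hoxc 2 of 9 in both libraries. These small counts moved with the setting. With a smaller, stricter peak list Hoxc had none in both libraries either, and with a window of 2 kb Hoxd12 was counted. By position in the body plan, the anterior paralog groups 1 to 4 had 0 of 12 genes accessible in both libraries, the central groups 5 to 8 had 3 of 11 and the posterior groups 9 to 13 had 2 of 16.

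**Figure D1:**
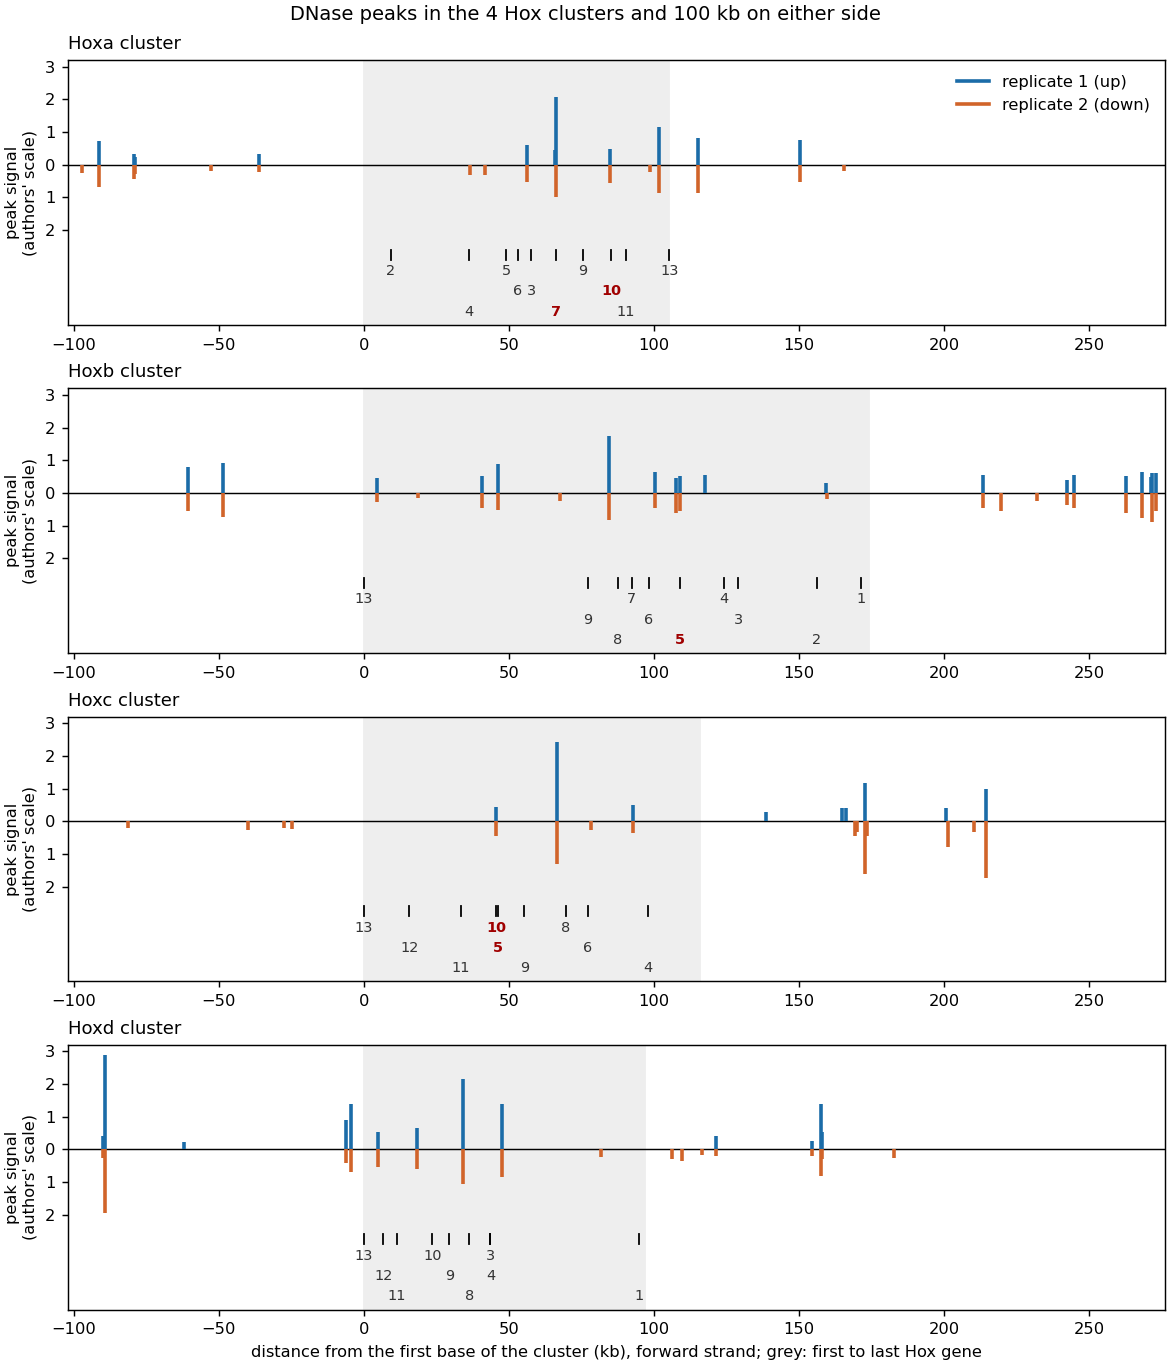
Peak signal in the 4 Hox clusters and 100 kb on either side, against the distance in kb from the first base of each cluster, with replicate 1 drawn upwards and replicate 2 downwards on the authors' scale. Ticks mark the most 5′ TSS of Hox genes by paralog number, in bold red for the 5 genes with a promoter peak in both libraries, and the highest peaks inside Hoxb, Hoxc and Hoxd stand away from those genes.

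The strongest Hox promoter was that of Hoxa7, a central group gene that helps set thoracic identity. Its peak reached a signal of 2.07 in replicate 1 and 1.00 in replicate 2 and covered the TSS. Of the promoters with a peak, 42.5% were lower in replicate 1 and 27.7% in replicate 2, so Hoxa7 lay below the median of called promoters, 2.48 and 1.94, in each library. The other 4 promoters were weaker. Hoxb5 had 0.524 and 0.543 (mean 0.533 ± 0.0131, n = 2), Hoxa10, a posterior gene used in trunk and limb, had 0.470 and 0.548 (0.509 ± 0.0548), and Hoxc10, a posterior gene of the lumbar region, had 0.439 and 0.448 (0.444 ± 0.00619). Hoxc5 had 0.493 and 0.448 (0.471 ± 0.0320), and it is counted through a pair of start sites. Its own peak, at the start site inside an intron of the long transcript, had 0.493 and 0.373. The long transcript starts near Hoxc10 and takes in the Hoxc10 peak, so those genes share an observation. Between 3.70% and 13.3% of called promoters were lower than these 4 genes, which places them near the floor of called promoters in both libraries.

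Hoxa4 was the gene called in replicate 2 only, with a signal of 0.309, 137 bp from its TSS. In replicate 1 its nearest peak was 19908 bp away. The 1 kb limit also decides some neighbouring genes. Hoxc6 had a replicate 2 peak 1057 bp from a TSS, Hoxa3 had peaks 1278 bp and 1235 bp away in replicates 1 and 2, and Hoxd12 had peaks at 1873 bp and 1773 bp. Hoxb2 had peaks at 1890 bp and 2186 bp. Over all 39 genes the median distance from a TSS to the nearest peak was 4367 bp in replicate 1 and 4309 bp in replicate 2. Among the most remote were Hoxc13, at 45409 bp in replicate 1 and 24577 bp in replicate 2, and Hoxa2, at 45323 bp and 27059 bp.

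Most Hox promoters without a peak were of the CpG-rich class. The CpG content, measured as the observed to expected ratio over 500 bp on each side of a gene's first TSS, had a median of 0.679 over the Hox genes (range 0.181 to 0.995) and 0.553 over all genes. Among the 25 Hox genes at 0.6 or above, 2 had a promoter peak in both libraries, Hoxa7 and Hoxb5, and Hoxa4 had one in replicate 2. Beside these counts, 93.1% of the 10081 protein-coding genes in that range had a promoter peak in both libraries and 95.8% in at least 1. The limit of 0.6 was chosen after the data were seen, and no other limit was tried. The other Hox genes with a peak in both libraries lay just below it: Hoxc10 at 0.594, Hoxa10 at 0.570 and Hoxc5 at 0.565. The 5 Hox genes in the highest of 10 equal bins of CpG content, Hoxa4, Hoxa5, Hoxa13, Hoxc12 and Hoxd13, had a promoter peak in both libraries in 0 cases, while 96.5% of all genes in that bin did. In the bin from 0.553 to 0.655, which holds the limit of 0.6, 4 of 11 Hox genes did, beside 84.9% of all genes.

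**Figure D2:**
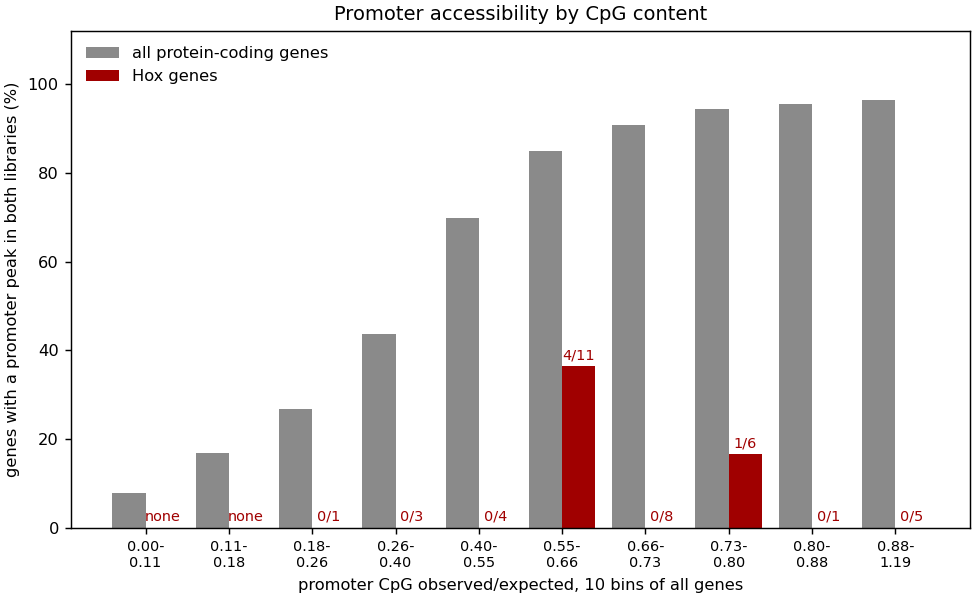
Percentage of genes with a promoter peak in both libraries in 10 bins of promoter CpG content, in grey for all protein-coding genes and in red for Hox genes, with the number of Hox genes printed above each bar. The grey bars climb from 7.79% to 96.5%, whereas accessible Hox genes appear in 2 bins, 4 of 11 in the sixth and 1 of 6 in the eighth.

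The per-base cleavage files, which list segments cut above background at a false discovery rate (FDR) of up to 0.05, gave a further view of the same promoters. They come from the same reads, and whether the peaks were called from these segments is not stated. At 32 of 39 Hox genes no base of the promoter was listed in either library, beside 30.2% of all protein-coding genes and 3.88% of those with CpG-rich promoters. The listed share of promoter bases averaged 0.905% and 1.52% over Hox genes in replicates 1 and 2. Over all genes it averaged 13.8% and 17.1%, and over CpG-rich promoters 23.0% and 27.2%. The 7 Hox genes with any listed base were the 6 with a peak and Hoxd1.

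Hoxb5 had the broadest cleavage, with 9.37% of promoter bases listed in replicate 1 and 13% in replicate 2. Hoxc5 had 8.07% and 12.8%, Hoxc10 had 8% and 11.7%, and Hoxa7 had 8.11% and 8.21%. Hoxa10 was narrower, at 1.25% and 3.72%. Cleavage at Hoxa4 was listed in replicate 1 too, over 0.200% of bases with a lowest FDR of 0.0435, and over 9.65% in replicate 2. Hoxd1, which has no peak within 1 kb, was listed in replicate 1 alone, over 0.300% of bases with a lowest FDR of 0.0418. Promoter footprints were present at the same 5 genes in both libraries as promoter peaks, beside 60.8% of all genes, with 7 and 4 footprints in replicates 1 and 2 at Hoxa7, 3 and 5 at Hoxc5, 2 and 3 at Hoxc10, 1 and 2 at Hoxb5, and 1 and 2 at Hoxa10.

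**Figure D3:**
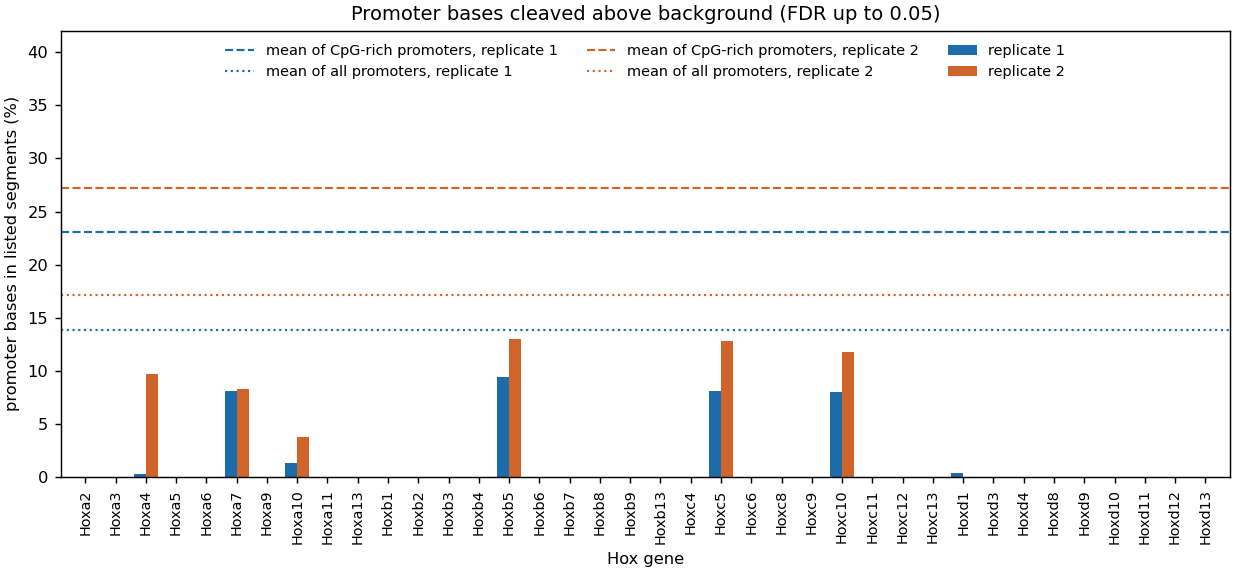
Percentage of promoter bases, within 1 kb of any TSS, in segments listed at an FDR of up to 0.05, for Hox genes named in the plot in replicate 1 (blue) and replicate 2 (orange), with lines at the mean of all promoters (dotted) and of CpG-rich promoters (dashed). All bars stay below the dotted line of their library, and most genes show no bar.

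Peaks as such were not rare in the clusters. Inside the 4 clusters, 492 kb in all, there were 21 peaks in replicate 1 and 26 in replicate 2, or 4.78 ± 0.719 per 100 kb (n = 2), beside 4.87 ± 2.22 over the genome. Hox promoter windows held 4.72 peaks per 100 kb in each library. Promoter windows of all protein-coding genes held 27.5 in replicate 1 and 34.5 in replicate 2. The rest of the clusters held 4.07 and 5.43, which lies close to their promoter windows, and the genome outside promoters held 2.40 and 5.40. Footprints numbered 41 and 53 inside the clusters, or 9.56 ± 1.73 per 100 kb, beside 11.3 ± 5.64 over the genome. By library, the peak density inside the clusters was 4.27 in replicate 1 and 5.29 in replicate 2, beside 3.30 and 6.44 over the genome, so it was above the genome in replicate 1 and below it in replicate 2. Footprint density went the same way, at 8.34 and 10.8 inside the clusters beside 7.32 and 15.3 over the genome.

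**Figure D4:**
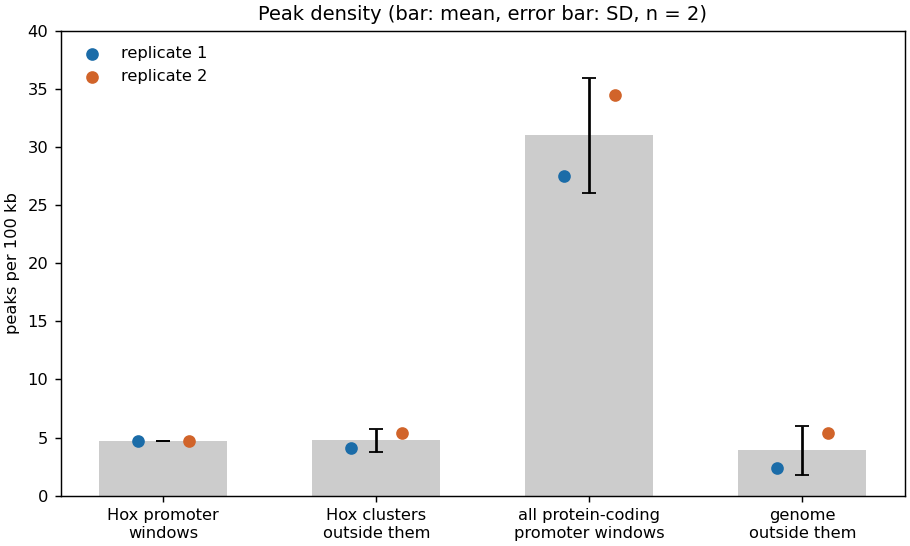
Peaks per 100 kb in Hox promoter windows, in the remainder of the clusters, in promoter windows of all protein-coding genes and in the genome outside them, with a point for each library and the mean and SD as bar and error bar (n = 2). Hox promoter windows, at 4.72 in both libraries, sit with the non-promoter regions and below the 27.5 and 34.5 of promoter windows in general.

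Each cluster had a long stretch without a peak in either library. In Hoxa it ran 36.3 kb over the anterior end and took in all start sites of Hoxa2 and Hoxa4. In Hoxb it ran 41.7 kb over Hoxb2, Hoxb3 and Hoxb4. In Hoxc it ran 45.4 kb over the posterior end, with Hoxc11, Hoxc12 and Hoxc13, and in Hoxd it ran 34.0 kb downstream of the Hoxd4 side DHS and held all start sites of 0 genes. The empty end was thus anterior in Hoxa and posterior in Hoxc.

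Of the peaks inside the clusters, 18 were shared between libraries: 4 in Hoxa, 7 in Hoxb, 3 in Hoxc and 4 in Hoxd. The highest was the Hoxc DHS at chr15:102987501-102987700, with signals of 2.44 and 1.30 in replicates 1 and 2. Hoxc kept 2 further shared sites, both under 0.5 in each library. They were the Hoxc10 promoter and a site that covers a Hoxc5 TSS inside an intron of the long Hoxc5 transcript. The Hoxd DHS at chr2:74702301-74702500 followed with 2.14 and 1.05. Also in Hoxd, a DHS at chr2:74715821-74716040 had 1.38 and 0.846. It lies in introns of Hoxd3 and Hoxd4, and covers the annotated TSS of the antisense transcript Hoxd3os1. A DHS in a Hoxd11 exon, 4078 bp from its nearest TSS, had 0.655 and 0.592, and one 1773 bp from Hoxd12 had 0.547 and 0.528. All 4 Hoxd sites are thus outside Hox promoter windows.

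In Hoxa, the Hoxa7 promoter was followed by a DHS at chr6:52257041-52257240, 3562 bp from Hoxa13, with 1.15 and 0.861. It overlaps an exon of the unclassified transcript 9530018H14Rik. The Hoxa10 promoter and a site in Hoxa3 introns, 1235 bp from a Hoxa3 TSS with 0.609 and 0.543, complete the Hoxa set. In Hoxb, the intergenic DHS at chr11:96278861-96279060 led with 1.75 and 0.831. A pair of intergenic sites in the wide gap between Hoxb13 and Hoxb9, 30917 bp and 36217 bp from Hoxb9, had 0.894 and 0.508, and 0.509 and 0.458. The remaining Hoxb sites were all below the leading one: 0.655 and 0.458 in an intron of Hoxb6, 0.447 and 0.627 at 1166 bp from Hoxb5, the Hoxb5 promoter, and 0.447 and 0.289 at 4367 bp from Hoxb13.

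CTCF is the zinc finger protein that anchors chromatin loops and binds within Hox clusters in many tissues. No shared DHS of the extended clusters (0 of 43) held an exact match to the CTCF consensus, while 7.12% of all shared DHSs did. With a looser consensus, 5 of the 18 sites inside the clusters (27.8%) and 2 of 25 in the flanks (8%) matched, beside 13.7% of all shared DHSs. A search that allowed mismatches was then added after these counts were seen, in the central 200 bp of each DHS. With at most 1 mismatch it found 5 of 18 sites inside the clusters, 3 of 25 in the flanks and 20.9% of all shared DHSs. With at most 2 mismatches it found 15 of 18 inside, 6 of 25 in the flanks and 42.2% of all shared DHSs.

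Best matches were then kept if at least 6 of their 12 bases lay in a footprint of each library. This left 11 of 18 inside (61.1%), 3 of 25 in the flanks (12%) and 21.6% of all shared DHSs. Only 1 best match per DHS was used, also where matches tied. A Hoxb flank DHS (chr11:96438877-96439060) had tied matches with 1 mismatch. The match used had 1 and 6 bases in footprints of replicates 1 and 2. The other had 10 and 12 and was not counted. The clusters' sites had a median GC content of 57%, beside 52% for all shared DHSs. Among shared DHSs within the middle range of the clusters' GC content, 49.8% to 61.4%, the share was 21.4%. The search was chosen on these sites, so the difference carries no test, and a match is a description of letters and not a bound site. The 11 footprinted matches are shown because they recur across all 4 clusters, each with 9 bases on either side and the match in capitals. Distances in the names run to the nearest TSS of the gene named. The site named Hoxc5 intron covers a Hoxc5 TSS inside an intron of the long transcript.
UTR of Hoxa7 (chr6:52221800-52221829, minus strand): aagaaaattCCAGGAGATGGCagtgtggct
Hoxa13 side, 3562 bp (chr6:52257112-52257141, plus strand): agcttgtcaACACGAGGTGGCgcccttgat
Hoxb9 side, 36217 bp (chr11:96235097-96235126, minus strand): ctctcgcggCCGGCAGGGGTCactgtgtgg
Hoxb9 side, 30917 bp (chr11:96240413-96240442, minus strand): cctagacagACACTAGAGGGTgctcggcgc
Hoxb8 side, 2845 bp (chr11:96278939-96278968, plus strand): gcacagtggCCGCTAGATGGCatccttgct
Hoxb6 side, 2125 bp (chr11:96294689-96294718, minus strand): cccgaacggACGGTAGATGGCagcaaactg
Hoxc5 intron (chr15:103013693-103013722, plus strand): tccgagtcgGCACCAGGTGTCgctgtgagc
Hoxd12 side, 1773 bp (chr2:74673169-74673198, minus strand): gccaaacgcCCAGGAGATGGCgagcgtgct
Hoxd11 exon, 4078 bp (chr2:74686471-74686500, plus strand): cttctacagCCACACGAGGGCgcgctcatg
Hoxd8 side, 2115 bp (chr2:74702386-74702415, plus strand): cgcatttggCCACTAGAGAGCgctgttgct
Hoxd4 side, 3892 bp (chr2:74715912-74715941, plus strand): gagctttgtCCAGGAGGAGGCgctgtagga
The matches at Hoxa7, in the Hoxa10 promoter (2 bases in a footprint of replicate 1 and 12 in replicate 2, so outside the 11) and 1773 bp from Hoxd12 shared the letters GAGATGGC, and in 2 of these 3 the whole match was the same. The matches at the Hoxb8 and Hoxb6 sides ended in TAGATGGC. In the Hoxc DHS, the highest of the clusters, the best match had 2 mismatches and 0 of its bases in a footprint of either library. The DHS held 4 footprints in replicate 1 and 5 in replicate 2. Matches with more mismatches in this DHS were not compared with its footprints.

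The letters bound by PBX-HOX pairs (TGATTNAT, either strand) and the homeodomain core TAATTA were each found in 0 of the 18 sites inside the clusters, beside 2.44% and 4.05% of all shared DHSs. The GC box GGGCGG, bound by SP and KLF factors, was found in 4 of 18 central 200 bp windows (22.2%), beside 19.2% of all. RefSeq promoter sequences matched 22 of the Hox genes with 24 promoters. TGATTNAT and TAATTA each lay in 2 of these 24 (8.33%), and GGGCGG lay in 10 (41.7%). Over all promoters of that set the shares were 3.22%, 5.29% and 35.7%.

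The highest sites had more signal in replicate 1 than in replicate 2. Among the 18 shared DHSs inside the clusters the median log2 ratio of replicate 1 to replicate 2 was 0.41, and 3 of them, at Hoxa7, in Hoxb and in Hoxd, passed 2-fold (16.7%). Over all shared DHSs the median was 0.05 and 1.91% passed 2-fold. The flanks leaned to replicate 1 too, with a median of 0.28. There 2 of 25 passed 2-fold (8%), the sites 4450 bp and 6210 bp from Hoxd13. Shared DHSs with the looser CTCF consensus had a genome-wide median of 0.33, and those without it 0.01. Inside the clusters the order for this consensus was the other way round, at 0.05 for the 5 sites with a looser match and 0.42 without. With mismatches allowed it was not reversed. Inside the clusters, sites with and without a match had medians of 1.04 and 0.40 for at most 1 mismatch, and 0.42 and 0.17 for at most 2. Over all shared DHSs these medians were 0.30 and -0.01, and 0.19 and -0.05. Whether the CTCF class or the number of peaks plays a part in the difference between libraries was not tested.

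**Figure D5:**
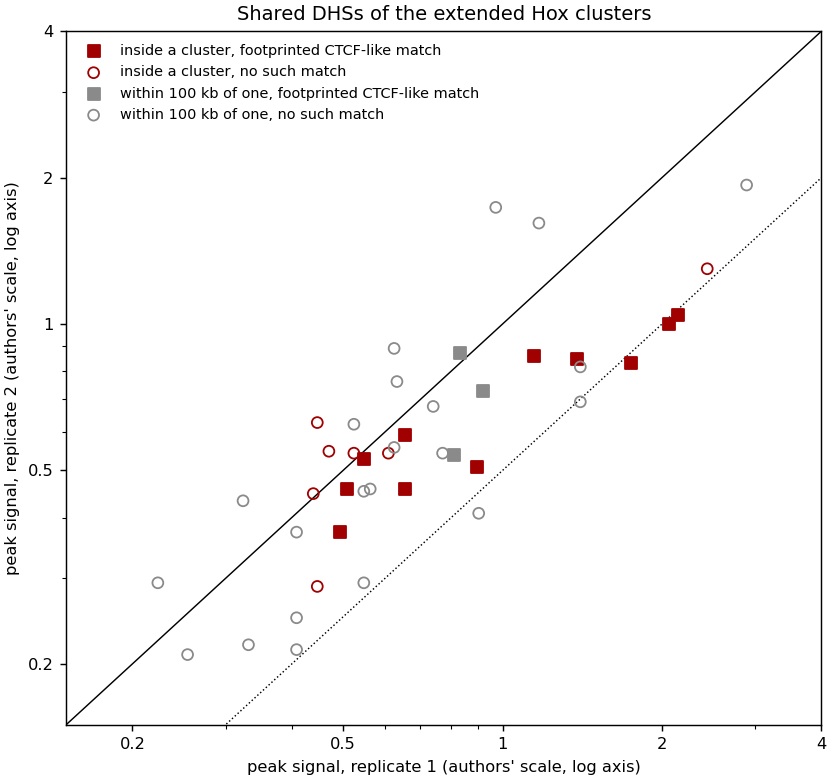
Peak signal of the 43 shared DHSs of the extended Hox clusters in replicate 1 (x axis) and replicate 2 (y axis), both log axes on the authors' scales, in red inside the clusters and grey within 100 kb of them. Filled squares have a best CTCF consensus match with at most 2 mismatches and at least 6 bases in a footprint of each library. The solid line marks equal signal and the dotted line a 2-fold difference, near which the highest sites inside the clusters fall.

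The flanks of 100 kb on either side held 31 peaks in replicate 1 and 43 in replicate 2, or 4.63 ± 1.06 per 100 kb, with 25 shared DHSs. The highest flank site was the promoter of Lnpk, which encodes an endoplasmic reticulum junction protein and lies beyond the Hoxd13 end, with 2.89 and 1.93. On the other side of Hoxd, Mtx2, a mitochondrial outer membrane gene, had a promoter peak of 1.40 and 0.816 (chr2:74825701-74825940), beside a weaker site of 0.547 and 0.294 in its intron. Between Hoxd13 and the Evx2 promoter, which had no peak, lay a pair of sites, 4450 bp and 6210 bp from Hoxd13, with 1.40 and 0.692, and 0.902 and 0.408. The nearest accessible coding promoters on the sides of Hoxd were thus those of Lnpk and Mtx2, while its own 9 genes had no promoter peak.

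The other flanks had fewer strong sites. Beyond Hoxc4 an intergenic DHS at chr15:103093681-103093980 had 1.17 and 1.61, and one at chr15:103135421-103135740, in an intron of the long non-coding RNA gene D930007P13Rik and within 1 kb of the start of Gm49477, had 0.971 and 1.74. Both were higher in replicate 2, whereas the highest sites inside the clusters were higher in replicate 1. The highest sites in the Hoxd flanks, among them the Lnpk and Mtx2 promoters, were higher in replicate 1 too. Those Hoxc sites were the only shared DHSs in the flanks of their cluster. In the Hoxb flanks the 5 highest had mean signals from 0.591 to 0.822. They included the promoter of Ttll6, a tubulin glutamylase gene, with 0.809 and 0.538, and a site in its intron with 0.917 and 0.727. In the Hoxa flanks the 5 highest had means from 0.275 to 0.852, led by a site 9701 bp from Hoxa13 with 0.832 and 0.871.

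Of 7 other protein-coding genes with a TSS in the flanks, 3 (Lnpk, Mtx2 and Ttll6) had a promoter peak in both libraries. The share over all protein-coding genes was 62.7%. Skap1 had a promoter peak in replicate 1 (0.485), and 3 had none. Those 3 were Calcoco2 and the homeobox genes Evx1 and Evx2, which lie beside the posterior ends of Hoxa and Hoxd. The 3 other protein-coding genes inside the clusters had none. Among 43 non-coding genes inside the clusters, microRNAs included, 4 had a promoter peak in both libraries, led by Hoxd3os1 (1.38 and 0.846) and 9530018H14Rik (1.15 and 0.861). The long non-coding RNAs Hotair, in Hoxc, and Hotairm1, in Hoxa, and Hottip beyond Hoxa13 had none. All 7 microRNA genes inside the clusters, among them Mir10a, Mir10b and Mir196b, lacked a peak within 1 kb of their annotated start. The shares over all non-coding and all microRNA genes were not counted. Whether these counts are particular to the clusters therefore cannot be told.

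Genes whose products act on Hox genes or with Hox proteins differed by list. The TALE homeodomain cofactors, which bind DNA together with Hox proteins, had promoter peaks in both libraries at 9 of 9 genes, with the highest mean signal at Pknox1 (8.51 ± 0.863, n = 2). The Polycomb subunits had them at 21 of 21 genes, led by Cbx8 (7.91 ± 0.774) and Jarid2 (7.35 ± 0.286). Among 8 Hox activators, 5 were accessible in both libraries, led by the H3K27 demethylase gene Kdm6a (10.7 ± 0.749) and the trithorax gene Kmt2a (5.33 ± 0.838). Cdx1 and Cdx2, caudal factors of the posterior embryo, had no peak, and Cdx4 had one in replicate 1 (0.254). Of 9 genes of retinoic acid signalling, which sets anterior Hox borders in the embryo, 4 were accessible in both libraries. They were led by the receptors Rarg (2.05 ± 0.255) and Rara (1.43 ± 0.184). A further 4 had a promoter peak in 1 library, and only Cyp26a1, a retinoic acid hydroxylase gene, had none. These shares stand beside the 62.7% of all protein-coding genes with a promoter peak in both libraries, and the 93.1% of those with CpG-rich promoters.

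With the smaller, stricter peak list of each library, 2 Hox promoters stayed accessible in both libraries, Hoxa7 and Hoxb5, beside 57.2% of all genes. With a window of 2 kb the count in at least 1 library was 10, beside 72.1% of all genes.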

How the data were processed

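DNase-seq libraries of 2 mice were read separately. Per the deposited notes, the authors derived peaks, footprints and FDR cut-rate segments from each library's own alignments to mm10. Aligner and callers: not given in the sources used here. Deposited peak signal never falls below 0, and its values are whole multiples of 1 step per library. Each FDR segment carries a deposited p-value type measure (a false discovery rate, listed up to 0.05). The footprint p-value column as deposited is 0.01 in all rows, so footprints were used by position only. Of the peak lists per library the larger was used, with the stricter one as an alternative. A gene counted as accessible when a peak overlapped by at least 1 bp a window of 1 kb around any TSS, upstream and downstream (GENCODE M21, GRCm38.p6). Clusters ran from the first to the last base of their Hox genes, and features were placed by midpoint. No test was possible with 1 group of 2 animals. Overlap and motif counting were tested on simulated data. Scripts used Python 3.11.15, NumPy 2.4.6, pandas 2.3.3 and Matplotlib 3.10.9. Named genes and sites were the Hox genes with a peak, shared DHSs inside the clusters, the 5 highest in each cluster's flanks, neighbouring coding genes and, of each list, the 2 highest promoters and up to 2 genes without a peak. The members and lists were chosen with earlier results of these data known. The CpG limit of 0.6 and the search with mismatches were added after seeing the data. Both alleles of the hybrid were mapped to 1 reference, per the labels' assembly, and alleles were not separated. Values of some genes are not reported here.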

Additional observations from a re-analysis of the deposited data

How the results depend on the processing

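The main limits are depth, which is unknown, a signal scale that is not stated, and 2 libraries that differ 1.95-fold in their number of peaks, so a missing peak was not detectable at this depth rather than shown to be absent. The count of Hox promoters accessible in both libraries was 5 with windows of 500 bp, with the most 5′ TSS, with protein-coding transcripts, with peak midpoints and with peak lists cut to equal length, the same 5 genes each time, but 2 with the stricter peaks and 7 with 2 kb. In at least 1 library it was 10 with 2 kb, against 6. From a single library the counts were 5 to 6. Peak density inside the clusters was 3.15 per 100 kb with the stricter peaks and 3.76 with equal numbers, and 4.27 to 5.29 from 1 library. Shared DHSs in the flanks numbered 16 with equal numbers, 8 within 50 kb, 66 within 200 kb and, as peaks of 1 library, 31 to 43. Inside the clusters there were 12 with the stricter peaks, 16 with equal numbers and, as peaks of 1 library, 21 to 26, against 18. The share of extended-cluster DHSs with a CTCF match was 0 with the exact consensus, 16.3% with the looser one, 18.6% with at most 1 mismatch and 48.8% with at most 2. Over all shared DHSs these shares were 7.12%, 13.7%, 20.9% and 42.2%. The listed share of Hox promoter bases, 1.21%, was 2.03% within 500 bp, where fewer bases are counted. Causes of these shifts were otherwise not tested. No paired analysis was possible because there is 1 group and no comparison between groups.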
